A study of Mus musculus with 24 samples.

Results

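Control clone 2 and control clone 7 are a pair of clonal isolates of RN2, a mouse acute myeloid leukaemia line with the genotype Mll-Af9; NrasG12D, both carrying the control hairpin shRen713 on a retroviral vector that doxycycline switches on. Their 8 libraries, taken by hairpin and clone label out of 24 in the series, comprise 4 of each clone: 2 from untreated cells at day 0 and 2 from cells after 4 days of doxycycline. The remaining 16 libraries hold clones 1 and 5 of shOgdh346 and clones 3 and 5 of shOgdh2081, whose hairpins are directed against Ogdh, with 2 libraries per clone and day. These 4 clones serve here only for comparison. Of 53465 genes in the table, 49158 lie on chromosomes 1 to 19, and 11607 of these passed the filter on low counts and were compared. Each control clone is 1 isolate, and nothing in the labels says that libraries of 1 clone came from separate cultures. The p-values therefore measure the spread between libraries, which may be technical, and describe these 2 isolates rather than clones in general.

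A clone descends from a single founder cell, so its cells share the founder's expression state wherever that state is passed on at division. The MLL-AF9 fusion keeps leukaemia cells at the stage of granulocyte and monocyte progenitors, and genes of the HOXA cluster, together with Meis1, are its best known targets. Maturation of such cells switches on granule, lysosome and receptor genes in a set order, with primary granule proteins made before secondary and tertiary ones.

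Total counts ran from 7275680 to 13232745 in the 8 libraries, and 16955 to 18457 genes had at least 1 count. Clone separated the libraries along the leading principal component, which held 65.4% of the variance, and day together with the libraries of day 0 followed on the next, with 20.2%. The libraries of 1 clone and day differed by more than counting noise, with a chi-square per gene of 7.22 and 8.35 at day 0 and of 2.57 and 2.08 at day 4 for clone 2 and clone 7. Levels below are CPM, the counts of a gene relative to the scaled library size. CPM are not adjusted for gene length and so are compared only within a gene. Sums over a list are compared only between libraries, and members with high counts weigh most in them. Log2 differences are clone 2 minus clone 7, with the standard error of edgeR's quasi-likelihood test, and adjusted p-values are Benjamini-Hochberg values of that test over all genes.

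Ogdh, the target of the other hairpins, encodes a subunit of the 2-oxoglutarate dehydrogenase complex (ENSMUSG00000020456, GRCm38 chr11:6291633-6356642). In clone 2 it stood at 200, 214, 206 and 207 CPM, and in clone 7 at 243, 247, 235 and 251 CPM, in the order day 0, day 0, day 4, day 4. The clones did not overlap, the difference was -0.24 ± 0.04 on the log2 scale with an adjusted p of 0.00066, and neither clone lost Ogdh over the 4 days. With the day 0 libraries alone the adjusted p was 0.146. In the Ogdh hairpin clones, by contrast, Ogdh lay at 130 to 206 CPM at day 0 and at 35.5 to 70.2 CPM at day 4. The primary granule genes of a myeloid progenitor were high in both clones: Mpo, the myeloperoxidase gene, ranged from 1545 to 4904 CPM in clone 2 and from 811 to 3334 CPM in clone 7. Most markers of other cell types stayed under 1 CPM: 18 of 19 for B cells, 24 of 26 for T and NK cells, 13 of 15 for erythroid cells, 10 of 15 for megakaryocytes, 14 of 20 for mast cells, basophils and eosinophils, and 16 of 20 for stromal and endothelial cells. Cd3e and Pf4, defining T cell and platelet genes, had no count. The exceptions at 5 CPM or more were Ighm, at 129 to 258 CPM in clone 2 and 168 to 234 CPM in clone 7, Bcl11b, Tfrc, Itgb3, Thbs1, Nfe2, Gata2, Mcpt8, Ms4a2, Hdc, Siglecf, Pecam1, Pdgfrb and Fn1. Ighm, an immunoglobulin heavy chain gene, was not called between the clones (adjusted p 0.577), and the part of other cells in the differences below was not tested.

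The clones differed at 3356 of the 11607 genes (28.9%), split almost evenly between 1674 higher in clone 2 (14.4%) and 1682 higher in clone 7 (14.5%). With replicate number within day as a block 5149 were called, 2544 and 2605 in the same order. Most differences were small, with a median size of 0.43 log2 units among the genes called. At least 2-fold differences were called for 861 genes (7.42%), 458 of them higher in clone 2 and 403 higher in clone 7, and 100 and 66 of these had fitted differences of at least 10-fold, which depend on the prior count where a clone has no counts. All 4 libraries of 1 clone lay above all 4 of the other at 2556 genes (22%), including 790 of the 861.

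The difference between the clones was present before induction and after it. With day 0 libraries alone 905 genes were called (7.8%), and with day 4 libraries alone 3818 (32.9%), next to the wider spread between the day 0 libraries given above. Of these, 891 were called on both days, 98.5% of the day 0 list and 23.3% of the day 4 list, all 891 in the same direction. Across genes, which are not independent replicates, the log2 differences of the 2 days had a Pearson correlation of 0.914. The test of the clone by day interaction called 0 of 11607 genes in edgeR (0%), with 272 at an unadjusted p under 0.05, and DESeq2 called 1. With the replicate block, however, it called 104, so a difference between the days is not settled by the unblocked count.

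**Figure D1:**
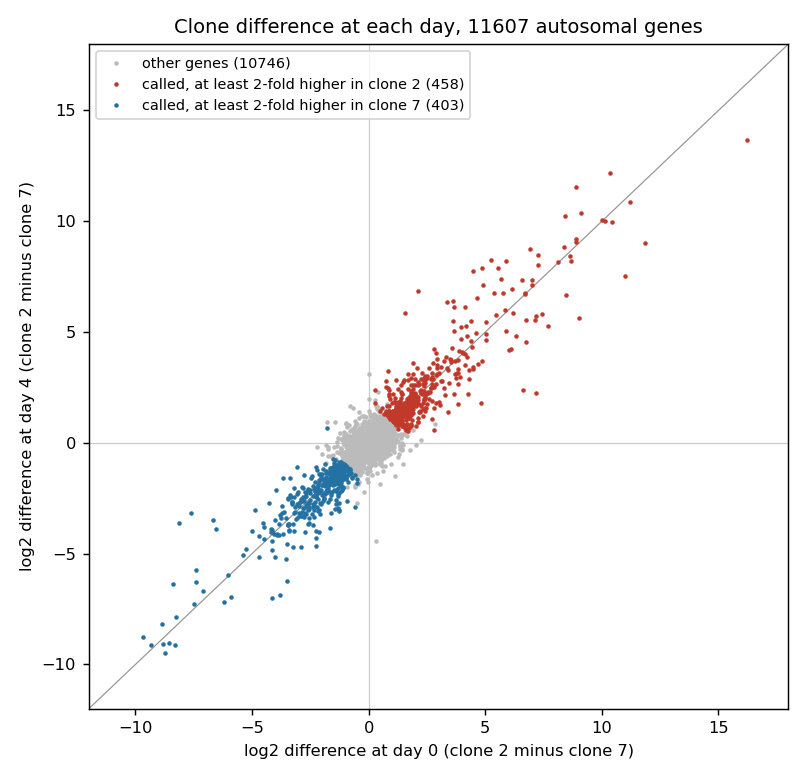
Log2 difference between control clone 2 and control clone 7 at day 0 (x axis) and at day 4 (y axis), 1 point per autosomal gene tested, with the line of equal difference. Red and blue mark the 458 and 403 genes called at 2-fold or more over both days; they lie along the line, and values of genes without counts in 1 clone depend on the prior count of the fit.

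The largest differences were genes read at a steady level in 1 clone and hardly or not at all in the other. Taking at least 2 CPM in every library of 1 clone and at most 3 counts over the 4 libraries of the other, 24 genes were on only in clone 2 and 9 only in clone 7, out of 10110 genes at that level in at least 1 clone. The 24 genes lie on 14 chromosomes and 22 of them are protein-coding. The 9 genes lie on 7 chromosomes and 8 of them are protein-coding.

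Ryr2, which encodes the calcium release channel of the cardiac sarcoplasmic reticulum, was the largest of all (ENSMUSG00000021313, GRCm38 chr13:11553102-12106945). Clone 2 had 1039, 992, 913 and 903 CPM, from 33041 counts in all, while clone 7 had 1 count in all, in 1 library of day 4. The ratio of normalised counts was 37874, with a 95% counting interval from 6797 to 1496010. Irx5, a homeobox transcription factor gene, stood at 87.4, 70.1, 59.0 and 67.2 CPM in clone 2 against 1 count in clone 7, a ratio of 2772 with an interval from 497 to 109522. Lrrk2, which encodes a kinase linked to Parkinson disease, had 44.5, 53.3, 68.1 and 60.6 CPM in clone 2 and 2 counts in clone 7. For each of these genes the 4 libraries of clone 2 lay close together at both days.

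Several transcription regulators were among the genes on only in clone 2. Hoxa11, the homeobox gene at one end of the HOXA run described below, had 35.6, 27.2, 28.6 and 22.4 CPM in clone 2 and no count in clone 7, and was at least 370-fold higher against a floor of 3 counts over the clone. Bcl11b, a transcription factor of T cell development, had 3.71, 10.7, 16.1 and 20.01 CPM in clone 2 and no count in clone 7, at least 177-fold higher. Its level spread more between libraries than that of the other genes named here. The T and NK cell list summed to 9.07 to 23.2 CPM in clone 2 and 1.15 to 2.75 CPM in clone 7. Bcl11b is itself in this list, and the only member at 5 CPM or more, so these sums include the values just given. Of the 26 genes in the list, 13 had no count, Cd3e and Cd4 among them. Ikzf2, the Helios gene, and Skida1 were on in clone 2 with 171 and 1162 counts against 0 and 3. Mgmt, the gene of a DNA repair enzyme that removes alkyl groups from guanine, had 7.42, 7.04, 5.90 and 5.76 CPM in clone 2 and 1 count in clone 7. Msantd3 and Lipo3 had no count in clone 7 and were at least 208-fold and 187-fold higher in clone 2.

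The 9 genes on only in clone 7 include regulators of growth and protein turnover. Prr5, which encodes a component of mTOR complex 2, had 12.2, 9.71, 6.61 and 4.82 CPM in clone 7 and no count in clone 2, at least 101-fold higher. Rnf144a, a ubiquitin ligase gene, had 10.0, 7.16, 8.29 and 6.77 CPM in clone 7 and no count in clone 2, at least 95.7-fold higher. Dip2c, Ppfibp2, Ttc30a1 and Eid2 also had no count in clone 2, against 256, 237, 223 and 204 counts in clone 7. Dsp, the gene of the desmosome protein desmoplakin, was low rather than silent in clone 2: 0.55, 0.503, 0.843 and 0.707 CPM against 77.9, 69.2, 78.5 and 80.6 CPM in clone 7. That is a difference of -6.84 ± 0.12 (adjusted p 1.0e-13), or 115-fold. Fn1, the fibronectin gene, stood at 0.211 to 0.503 CPM in clone 2 and 8.40 to 11.7 CPM in clone 7.

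**Figure D2:**
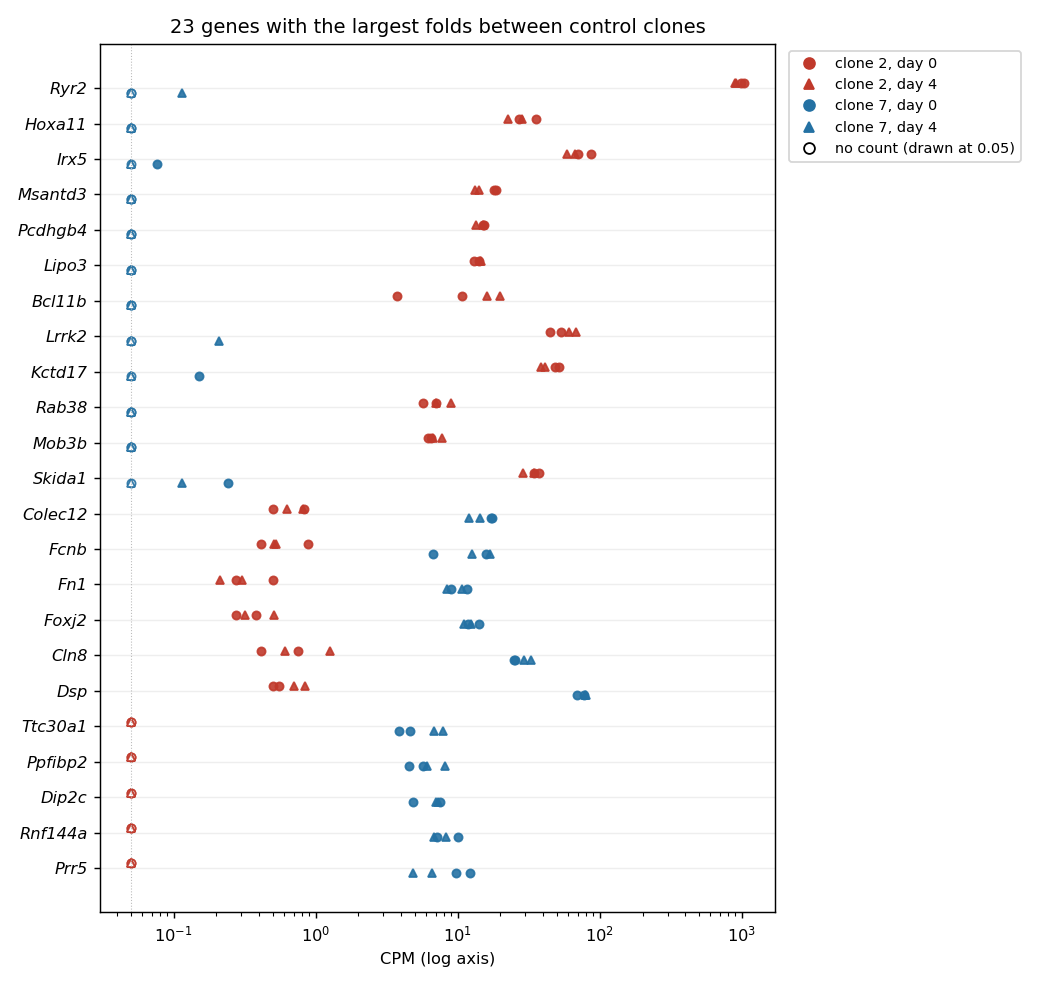
CPM (log axis) of genes with the largest folds among those of at least 5 CPM, 12 higher in clone 2 and 11 higher in clone 7, 1 symbol per library, circles for day 0 and triangles for day 4, red for clone 2 and blue for clone 7; open symbols mark libraries with no count, drawn at 0.05. Ryr2 lies between 903 and 1039 CPM in all 4 libraries of clone 2, and Dsp lies between 69.2 and 80.6 CPM in clone 7.

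The stretches just before the start sites of 4 of these genes are shown because each was transcribed in 1 clone and nearly or fully without counts in the other. Each is the 250 bases upstream of the RefSeq start in GRCm38.p6, read 5′ to 3′ on the strand of the gene, with every CpG in capitals. Ryr2 (chr13:12106946-12107195, minus strand) and Hoxa11 (chr6:52245811-52246060, minus strand) were on in clone 2; Dsp (chr13:38151044-38151293, plus strand) and Dip2c (chr13:9276275-9276524, plus strand) were on in clone 7.
Ryr2: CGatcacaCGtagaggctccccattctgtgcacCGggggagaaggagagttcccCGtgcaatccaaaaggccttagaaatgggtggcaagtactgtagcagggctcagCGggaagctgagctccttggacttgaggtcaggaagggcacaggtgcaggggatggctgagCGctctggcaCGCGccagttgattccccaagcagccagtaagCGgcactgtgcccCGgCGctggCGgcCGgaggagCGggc
Hoxa11: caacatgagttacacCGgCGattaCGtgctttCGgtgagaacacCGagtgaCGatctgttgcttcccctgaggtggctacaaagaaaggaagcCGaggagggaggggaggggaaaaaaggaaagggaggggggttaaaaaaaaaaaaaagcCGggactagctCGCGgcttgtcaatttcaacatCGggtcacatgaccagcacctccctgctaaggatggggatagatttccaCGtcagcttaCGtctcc
Dsp: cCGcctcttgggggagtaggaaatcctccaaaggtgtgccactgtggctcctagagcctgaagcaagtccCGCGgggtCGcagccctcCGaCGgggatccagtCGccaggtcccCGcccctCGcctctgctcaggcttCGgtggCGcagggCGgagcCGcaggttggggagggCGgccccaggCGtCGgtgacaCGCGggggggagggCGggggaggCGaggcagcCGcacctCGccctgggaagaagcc
Dip2c: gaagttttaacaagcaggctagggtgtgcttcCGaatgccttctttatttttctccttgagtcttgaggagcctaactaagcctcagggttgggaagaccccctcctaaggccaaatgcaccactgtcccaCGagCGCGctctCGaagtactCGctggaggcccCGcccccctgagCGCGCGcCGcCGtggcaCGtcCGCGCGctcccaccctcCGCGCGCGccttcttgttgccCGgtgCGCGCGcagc
They hold 14, 13, 22 and 24 CpG dinucleotides, the site at which mammalian DNA is methylated. No methylation was measured here. A comparison of CpG content with other genes was void, because only 69.7% of the genes on in 1 clone and 74.2% of all genes tested had an entry in that table.

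The HOXA cluster was higher in clone 2 along its length. From Hoxa2 to the antisense transcript Hoxa11os, 14 neighbouring tested genes (GRCm38 chr6:52162417-52249799) were all called at least 2-fold higher in clone 2, with a lowest difference of 1.03 and a median of 2.07, and in 13 of them the clones did not overlap. The fitted differences of Hoxa11 and Hoxa11os, with 0 and 1 counts in clone 7, depend on the prior count and are not given. It was the longest such run on the autosomes. Hoxa9, the HOX gene most closely tied to MLL leukaemia, stood at 265, 215, 210 and 220 CPM in clone 2 and at 126, 104, 97.0 and 96.4 CPM in clone 7. Its difference was 1.10 ± 0.07 (adjusted p 2.8e-07), or 2.14-fold. Hoxa10 was steadier, at 116, 110, 115 and 118 CPM against 30.2, 26.1, 25.2 and 22.6 CPM, a difference of 2.13 ± 0.07 (adjusted p 6.6e-11). Hoxa5 differed 5.37-fold, Hoxa3 by 2.62 ± 0.15 and Hoxa7 by 1.06 ± 0.09. Hoxa4 was the gene whose clones overlapped, with 3.16, 1.76, 1.26 and 1.11 CPM against 1.29, 0.485, 0.315 and 0.459 CPM. Hoxa4 and the antisense transcripts Hoxaas2 and Hoxaas3 did not pass with the day 0 libraries alone, with adjusted p of 0.238, 0.0693 and 0.276, and Hoxaas3 also lost its call under DESeq2, with day 4 alone and without any 1 of 3 libraries (clone 2 day 0 replicate 2, clone 2 day 4 replicate 2 and clone 7 day 4 replicate 2). Whether counting used strand is not given in the sources used here, so sense and antisense members of the cluster cannot be told apart fully.

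**Figure D3:**
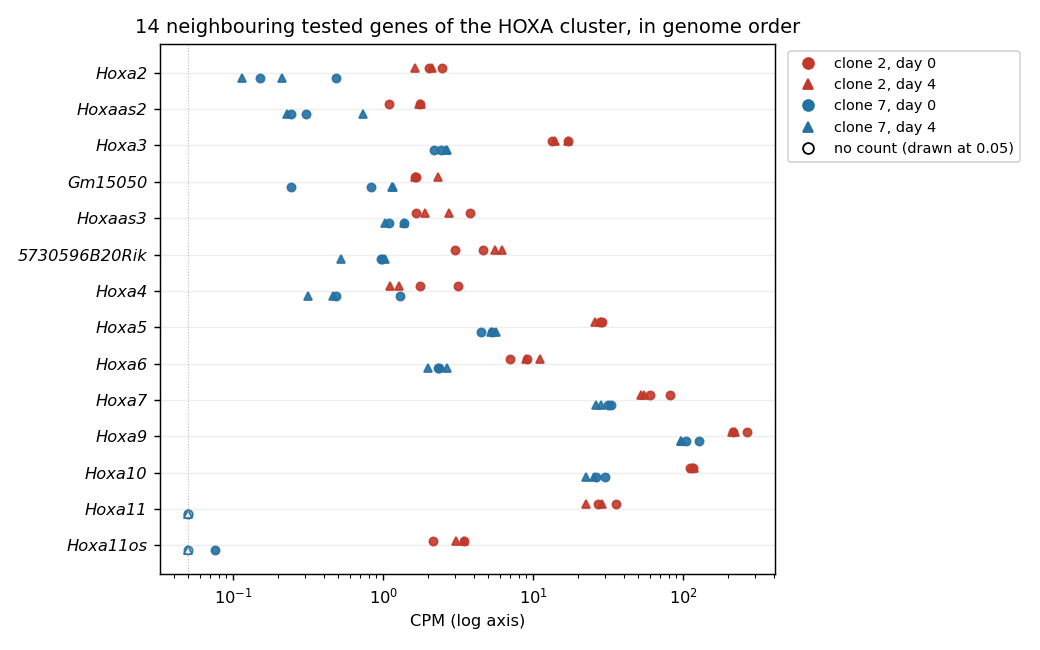
CPM (log axis) of the 14 neighbouring tested genes of the HOXA cluster in genome order, 1 symbol per library as in the plot of the largest differences. Clone 2 (red) lies to the right of clone 7 (blue) at every gene, with overlap only at Hoxa4, and Hoxa11 has no count in clone 7.

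Of 27 tested genes in a list of leukaemia self-renewal genes, 17 were higher in clone 2 and 7 higher in clone 7, and 9 of the 17 are the HOXA genes above. Calls made up 88.9% of the list, beside 28.9% of all genes. The list had a median difference of 0.46, beside 0.0038 over all genes tested, and other members called higher in clone 2 included Pbx3, Myb, Mef2c, Cdk6, Kit, Jmjd1c and Hmga2. Hmga2, an architectural chromatin protein gene of immature cells, had 21.2, 15.3, 19.1 and 21.4 CPM in clone 2 and 0.152, 0.364, 0.21 and 0.459 CPM in clone 7. The difference was 6.03 ± 0.24 (adjusted p 3.5e-10). Kit, the stem cell factor receptor gene, had 369, 348, 347 and 366 CPM against 153, 147, 182 and 198 CPM, 2.11-fold higher in clone 2. Meis1, the usual partner of HOXA9, went the other way: it ranged from 44.5 to 55.1 CPM in clone 2 and from 50.8 to 65.6 CPM in clone 7, overlapping, with a difference of -0.26 ± 0.07 (adjusted p 0.00996, and 0.230 with the day 0 libraries alone). Lmo2, Flt3, Cd34, Prom1, Igf2bp2 and Igf2bp3 were also called higher in clone 7. Meis1, like other list members given below by their lowest and highest library only, was singled out after its values were seen.

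The genes that are joined in the fusion were both higher in clone 2. Kmt2a, the MLL gene, had 2610, 2532, 2307 and 2310 CPM in clone 2 and 1165, 1106, 976 and 1003 CPM in clone 7, a difference of 1.19 ± 0.04 (adjusted p 9.8e-11). Mllt3, the AF9 gene, had 574, 502, 423 and 452 CPM against 224, 201, 172 and 177 CPM, a difference of 1.33 ± 0.05 (adjusted p 4.2e-10). In neither gene did the clones overlap, and counts per gene do not separate reads of a fusion transcript from those of the intact genes. Ell2, an elongation factor gene of the complex that MLL fusions recruit, differed by 1.28 ± 0.08. Of 28 cofactors and chromatin regulators in the list, 8 were higher in clone 2 and 3 in clone 7, the latter being Mllt1, Dnmt3a and Dnmt3b. That is 39.3% called, beside 28.9% of all genes.

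Genes of neutrophil maturation were higher in clone 7. Of 31 tested genes of secondary and tertiary granules and late maturation, 22 were higher in clone 7 and 1, Pglyrp1, in clone 2. Calls made up 74.2% of the list, beside 28.9% of all genes. The 22 include Stfa1, Stfa2, Stfa2l1, Stfa3 and BC100530, which belong to the run of stefins described below and are not separate evidence from it. They also include Itgam and Ly6c2, which lost their call in 10 and 8 of the 17 alternatives. The median difference of the list was -1.36, and its summed level ran from 3069 to 3271 CPM in clone 2 and from 5809 to 7303 CPM in clone 7. The sum includes Stfa1, with means of 127 and 796 CPM in clone 2 and clone 7, and BC100530, with 58.6 and 441 CPM. It also includes S100a8, at 101 to 163 CPM and 566 to 899 CPM, and S100a9. In these bulk libraries more maturing cells and more RNA per cell cannot be told apart. Olfm4, a specific granule protein gene, had 9.07, 10.7, 13.3 and 12.9 CPM in clone 2 and 134, 131, 121 and 114 CPM in clone 7, a difference of -3.43 ± 0.10 (adjusted p 3.4e-11). S100a9, a subunit of calprotectin, had 64.9, 77.1, 80.0 and 78.6 CPM against 836, 571, 513 and 495 CPM, 7.94-fold higher in clone 7, though with the 2 libraries of each clone and day summed its adjusted p was 0.0970. S100a8 lost its call in the same setting. The libraries of the clones were far apart for Olfm4 and S100a9. Lcn2, the lipocalin of specific granules, ranged from 1.79 to 3.30 CPM in clone 2 and 18.2 to 28.3 CPM in clone 7, and Ltf, the lactoferrin gene, from 1.79 to 4.02 CPM and 13.7 to 21.9 CPM. Camp, the cathelicidin gene, ranged from 1.65 to 3.40 CPM and 4.85 to 7.73 CPM.

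A cluster of stefins, small inhibitors of cysteine proteases, formed the longest run of neighbours higher in clone 7. Its 8 tested genes (GRCm38 chr16:36156811-36455392) had a median difference of -2.86. Stfa1 had 146, 135, 110 and 117 CPM in clone 2 and 958, 750, 756 and 722 CPM in clone 7, a difference of -2.66 ± 0.07 (adjusted p 7.3e-11). Stfa3 differed by -3.56 ± 0.17 and Stfa2l1 by -2.97 ± 0.13. At day 0 Stfa1 had means of 141 CPM in control clone 2 and 854 CPM in control clone 7. It had 760, 601, 771 and 321 CPM in shOgdh346 clones 1 and 5 and shOgdh2081 clones 3 and 5. Control clone 2 had the lowest day 0 mean of all clones at each gene of the run. These genes are near copies of each other, so the reads assigned to single members are uncertain.

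Primary granule genes, made earlier in the lineage, were split, with 5 of 14 higher in each clone and a median difference of 0.01. The share called was 71.4%, beside 28.9% of all genes. Mpo was 1 of the 5 higher in clone 2, but its libraries overlapped between the clones. Its adjusted p in edgeR was 0.0484, and it lost its call in 10 of the 17 alternatives. Ms4a3, a gene of granulocyte and monocyte progenitors, had 951, 1009, 1176 and 1115 CPM in clone 2 and 584, 560, 691 and 650 CPM in clone 7, a difference of 0.77 ± 0.04 (adjusted p 1.5e-08). Prtn3, the proteinase 3 gene, went the other way with 1075, 1002, 1156 and 1151 CPM against 1692, 1487, 1665 and 1695 CPM, a difference of -0.58 ± 0.05 (adjusted p 7.4e-07). Within this list, then, single genes separated the clones without overlap in opposite directions. Elane, the neutrophil elastase gene, ranged from 1093 to 1338 CPM in clone 2 and from 1622 to 2118 CPM in clone 7, and Ctsg, the cathepsin G gene, was not called (adjusted p 0.191), though it passed with the replicate block (adjusted p 0.00127).

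Monocyte and macrophage genes leaned the same way as those of neutrophils, with 15 of 29 higher in clone 7 and 5 higher in clone 2, but the summed level of the list overlapped, at 2282 to 2582 CPM in clone 2 and 2339 to 2478 CPM in clone 7. Calls made up 69% of the list, beside 28.9% of all genes. Ly86, a partner of a Toll-like receptor homologue, had 12.8, 15.1, 10.2 and 10.6 CPM in clone 2 and 128, 136, 137 and 127 CPM in clone 7, 10.98-fold higher. Csf1r, the receptor of macrophage colony-stimulating factor, ranged from 37.9 to 60.2 CPM in clone 2 and from 88.5 to 116 CPM in clone 7. Cd14, Ccr2, Fcgr2b, Fcgr3 and Fcgr4 were the 5 genes higher in clone 2. Of 26 myeloid transcription factors, 10 were higher in clone 2, Erg (0.85 ± 0.06) and Cebpa among them, and 5 in clone 7, Irf5 (-1.41 ± 0.11) and Irf8 among them. The share of these factors called was 57.7%, beside 28.9% of all genes.

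Of 17 tested G1 cyclins, CDK inhibitors and related genes, 7 were higher in clone 2 and 3 in clone 7, with 1 at 2-fold or more in each direction. Calls made up 58.8% of the list, beside 28.9% of all genes. Cdkn2c, the p18 inhibitor of CDK4 and CDK6, had 92.6, 104, 94.5 and 90.7 CPM in clone 2 and 10.5, 8.62, 8.92 and 8.49 CPM in clone 7, a difference of 3.36 ± 0.08 (adjusted p 1.5e-12). Cdkn2a, whose locus encodes p16INK4a and ARF, had 5.77, 4.91, 2.74 and 3.94 CPM in clone 2 and 44.8, 34.7, 31.8 and 33.2 CPM in clone 7, a difference of -3.09 ± 0.14 (adjusted p 8.1e-10). Gene counts do not separate the transcripts of the Cdkn2a locus. Ccnd2, the cyclin D2 gene, was lower in clone 2, at 145 to 179 CPM against 249 to 275 CPM. Of 48 genes of DNA replication, 14 were higher in clone 2 and 0 in clone 7 in edgeR, with a small median of 0.09. The share of the list called, 29.2%, was near the 28.9% of all genes, of which 14.4% were higher in clone 2. Tyms, the thymidylate synthase gene, had 123, 122, 108 and 116 CPM against 104, 97.3, 97.1 and 93.8 CPM. With day 0 libraries alone 0 of the 48 passed in either direction. Of 47 mitotic genes 7 were higher in clone 2 and 1 in clone 7, which is below the share of all genes called.

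Among p53 and its targets 11 of 28 were higher in clone 2 and 0 in clone 7, with a median of 0.16. The share called was 39.3%, beside 28.9% of all genes. Phlda3, an inhibitor of AKT signalling, had 10.0, 14.1, 11.6 and 13.4 CPM in clone 2 and 2.35, 4.13, 3.25 and 2.64 CPM in clone 7, 4.04-fold higher. Xpc, a damage recognition gene of nucleotide excision repair, differed by 0.70 ± 0.05, and Btg2, an antiproliferative gene, by 1.37 ± 0.11. Cdkn1a, the p21 gene, ranged from 115 to 163 CPM in clone 2 and from 87.3 to 113 CPM in clone 7 (adjusted p 0.0049, and 0.221 with the day 0 libraries alone). With the day 0 libraries alone 3 of the 28 passed.

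Metabolic lists were mostly higher in clone 7, by small amounts. Of 32 genes of cholesterol and fatty acid synthesis and uptake, 20 were higher in clone 7 and 1 in clone 2, with a median of -0.30. The share called was 65.6%, beside 28.9% of all genes. Sc5d, an enzyme of the last steps of sterol synthesis, had 59.4, 55.1, 71.4 and 78.1 CPM in clone 2 and 85.1, 91.7, 115 and 109 CPM in clone 7. Hmgcs1, which makes the precursor of mevalonate, had 53.5, 58.9, 75.4 and 75.6 CPM against 75.5, 85.8, 108 and 98.7 CPM, with the clones just overlapping. With the day 0 libraries alone 5 of the 20 passed.

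Of 35 genes of serine and one-carbon metabolism and other ATF4 targets, 18 were higher in clone 7 and 2 in clone 2, with a median of -0.25. The share called was 57.1%, beside 28.9% of all genes. Pycr1, a proline synthesis enzyme, had 31.5, 21.6, 23.8 and 25.97 CPM in clone 2 and 83.9, 63.7, 56.2 and 59.2 CPM in clone 7, a difference of -1.36 ± 0.12. Bcat1, the cytosolic branched-chain aminotransferase, was higher in clone 2, with 32.3, 19.7, 18.2 and 17.5 CPM against 8.18, 5.58, 6.30 and 4.82 CPM, a difference of 1.78 ± 0.18. Of 27 genes of the TCA cycle and its entry, 16 were higher in clone 7 and 1, Dlst, in clone 2, with a median of -0.18. Of 50 nuclear-encoded respiratory chain subunits 18 were higher in clone 7 and 0 in clone 2, with a median of -0.14. The shares called were 63% and 36%, beside 28.9% of all genes. Uqcrfs1, the Rieske subunit of complex III, had 120, 108, 103 and 101 CPM against 140, 131, 127 and 128 CPM. With the day 0 libraries alone 0 genes of the TCA list and 0 of the respiratory list passed in either direction; with day 4 alone 17 and 16 were higher in clone 7.

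Receptors and signalling genes went both ways. Met, the hepatocyte growth factor receptor gene, had 2.20, 3.40, 2.21 and 1.92 CPM in clone 2 and 29.9, 31.5, 31.3 and 30.6 CPM in clone 7, 12.8-fold higher, and Igf1r, the receptor of insulin-like growth factor, differed by -0.58 ± 0.04. Epha7, an ephrin receptor gene, had 223, 233, 231 and 217 CPM in clone 2 and 1.06, 2.06, 0.84 and 0.803 CPM in clone 7, a difference of 7.58 ± 0.12 (adjusted p 2.3e-14). Rhoj, a small GTPase gene, had 185, 171, 171 and 169 CPM against 0.455, 0.364, 0.84 and 0.229 CPM, a difference of 8.46 ± 0.12 (adjusted p 2.0e-14). The last pair are among the cleanest contrasts between the clones, each without overlap at either day. Among receptors of cytokines and growth factors, 7 of 26 were higher in clone 2 and 11 in clone 7. The share of these receptors called was 69.2%, beside 28.9% of all genes. Socs2, an inhibitor of cytokine signalling, was 10.5-fold higher in clone 2, and Gpx3, the secreted glutathione peroxidase gene, 88.5-fold higher. Of 35 genes of RAS and ERK signalling, 10 were higher in clone 2, including the feedback phosphatase Dusp4 (1.45 ± 0.16) and Braf (0.52 ± 0.06), and 3 in clone 7. That is 37.1% called, beside 28.9% of all genes.

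Immune response and surface genes were mixed. Slfn4, a schlafen family gene induced in myeloid cells by interferon, had 12.4, 11.3, 11.3 and 12.6 CPM in clone 2 and 206, 186, 204 and 211 CPM in clone 7, a difference of -4.09 ± 0.07 (adjusted p 2.7e-14). Of the 31 genes of the interferon list 5 were higher in each clone, a share near that of all genes, and of 18 NF-kB and inflammatory genes 1 was higher in clone 2 and 2 in clone 7, below that share. Slfn2 and Slfn10-ps, beside Slfn4, were also higher in clone 7, and reads may be shared between these related genes. For class I antigen presentation 7 of 19 genes were higher in clone 7, B2m (-0.59 ± 0.05) among them, and 3 in clone 2. Of 27 ion channels and purinergic receptors 14 were higher in clone 7 and 5 in clone 2; Trpm2, a calcium-permeable channel of myeloid cells, had 5.22, 4.65, 4.85 and 5.46 CPM in clone 2 and 19.1, 23.5, 23.9 and 22.9 CPM in clone 7. Of 31 adhesion genes, 12 were higher in clone 2, Cd63 (1.42 ± 0.06) among them, and 10 in clone 7, Itgb7 (-2.54 ± 0.09) and Itga1 (-1.95 ± 0.07) among them. For the class I, channel and adhesion lists the shares called were 52.6%, 70.4% and 71%, beside 28.9% of all genes. Cytosolic ribosomal proteins were called for 5 of 56, fewer than the share of all genes, with a median of 0.05, and leaving out any 1 library gave between 0 and 12 calls higher in clone 2.

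**Figure D4:**
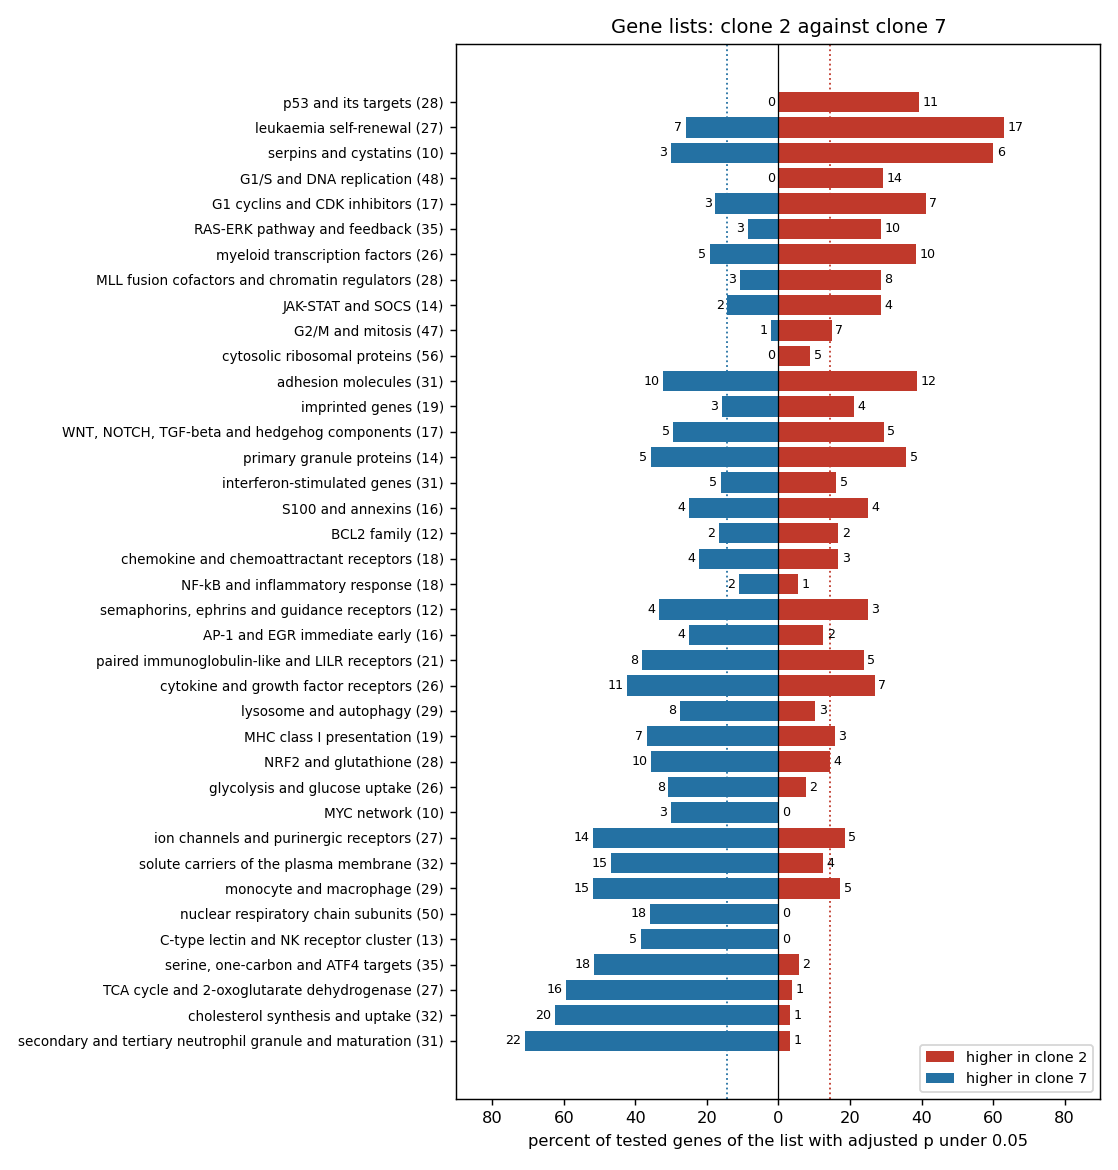
Percent of the tested genes of each list with an adjusted p under 0.05, to the right (red) where higher in clone 2 and to the left (blue) where higher in clone 7, for 38 lists of at least 10 tested genes; numbers beside the bars are counts and numbers in brackets are genes tested. Dotted lines mark the shares over all genes, 14.4% and 14.5%; neutrophil maturation reaches 22 of 31 on the left, and self-renewal 17 of 27 on the right.

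Differences between the clones lay partly beside each other in the genome. For 132 of the 861 genes with at least 2-fold differences (15.3%), the next tested gene differed by at least 2-fold in the same direction, beside 3.95% and 3.47% of all tested genes at least 2-fold higher in clone 2 and in clone 7. There were 19 runs of 3 or more such neighbours, holding 83 genes. Besides HOXA and the stefins they included Cgnl1 and Tcf12 (GRCm38 chr9:71626509-72111871) and Fut8 and Gphn (GRCm38 chr12:77238125-78684772). Cgnl1, a junction protein gene, had 128, 148, 126 and 121 CPM in clone 2 and 0.758, 0.849, 1.89 and 2.41 CPM in clone 7, and Tcf12, a transcription factor gene next to it, 450, 399, 337 and 326 CPM against 141, 135, 127 and 119 CPM. Gphn, the gephyrin gene, had 35.6, 35.5, 37.9 and 33.3 CPM against 0.379, 0.00, 0.42 and 0.918 CPM, and Fut8, a fucosyltransferase gene, differed by 1.23 ± 0.05. In each of these pairs both genes were higher in clone 2, by very unequal amounts. Among families of near copies, whose reads may be shared, 3 H2-Q class I genes (GRCm38 chr17:35379617-35430055, median -2.83) and 4 neighbours of the Ms4a family (GRCm38 chr19:11404770-11484578, median -2.49) were higher in clone 7. Neighbours that overlap in the genome, such as Hoxa11 and Hoxa11os, may also share reads, since the strand setting is unknown. The part of shared reads in the 15.3% was not tested.

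Chromosome medians differed little between the clones. The median difference of a chromosome relative to all autosomes ran from -0.023 to 0.032 log2 units, beside 0.585 for 3 copies against 2. An exact two-sided permutation test over the 8 libraries, whose smallest possible p is 0.0286, gave that value for chromosomes 7, 12 and 17, where the libraries of the clones did not overlap. With 19 chromosomes and this smallest p, adjustment could hardly pass a single one, and the adjusted p of 0.181 for these 3 says nothing on whether they differ. The share of genes with at least 2-fold differences ran from 4.68% on chromosome 5 to 12.1% on chromosome 6. Chromosome 6 had 71 such genes, of which the HOXA run makes up 14.

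At day 0, before any hairpin was induced, the control clones were further apart than the clones of either other hairpin. In a fit of all 24 libraries, 806 of 12813 autosomal genes differed at least 2-fold between the control clones (6.29%), 482 between the shOgdh346 clones (3.76%) and 495 between the shOgdh2081 clones (3.86%). The difference between these counts was not tested. Of the 806 genes, 278 also differed between the shOgdh2081 clones, 34.5% of the control list and 56.2% of the other, and 203 between the shOgdh346 clones, 25.2% and 42.1%. Among the 278, shOgdh2081 clone 5 was on the side of control clone 2 at 250, while the 203 were split, with clone 5 of shOgdh346 on that side at 92 and clone 1 at 111.

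Control clone 2 was closest to a clone that carries another hairpin. Against shOgdh2081 clone 5 it differed at least 2-fold at 240 genes (1.87%), fewer than the 806 against control clone 7. Against the other clones it differed at 700 (5.46%) for shOgdh2081 clone 3, 916 (7.15%) for shOgdh346 clone 5 and 1032 (8.05%) for shOgdh346 clone 1. Control clone 7 differed least from shOgdh346 clone 5, at 221 genes (1.72%), then from shOgdh2081 clone 3 at 294 (2.29%), shOgdh346 clone 1 at 408 (3.18%) and shOgdh2081 clone 5 at 569 (4.44%). Contrasts of 1 control clone share its 2 libraries, so these counts are not independent of each other.

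The genes that were on in 1 control clone followed the same grouping. Of the 24 on only in clone 2, shOgdh2081 clone 5 had at least 2 CPM at day 0 for 18, and the other clones for 3 (shOgdh346 clone 1), 1 (shOgdh346 clone 5) and 2 (shOgdh2081 clone 3). Ryr2 stood at 576 CPM in shOgdh2081 clone 5 and at no count in the other 3 Ogdh hairpin clones at day 0, and Irx5 at 56.2 CPM and no count. Of the 9 on only in clone 7, shOgdh2081 clone 5 had 2 and the others 5, 6 and 8. Not every difference was shared: Lrrk2 and Hoxa11 were at 0.471 and 0.916 CPM in shOgdh2081 clone 5, beside 48.9 and 31.4 CPM in control clone 2 at day 0.

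**Figure D5:**
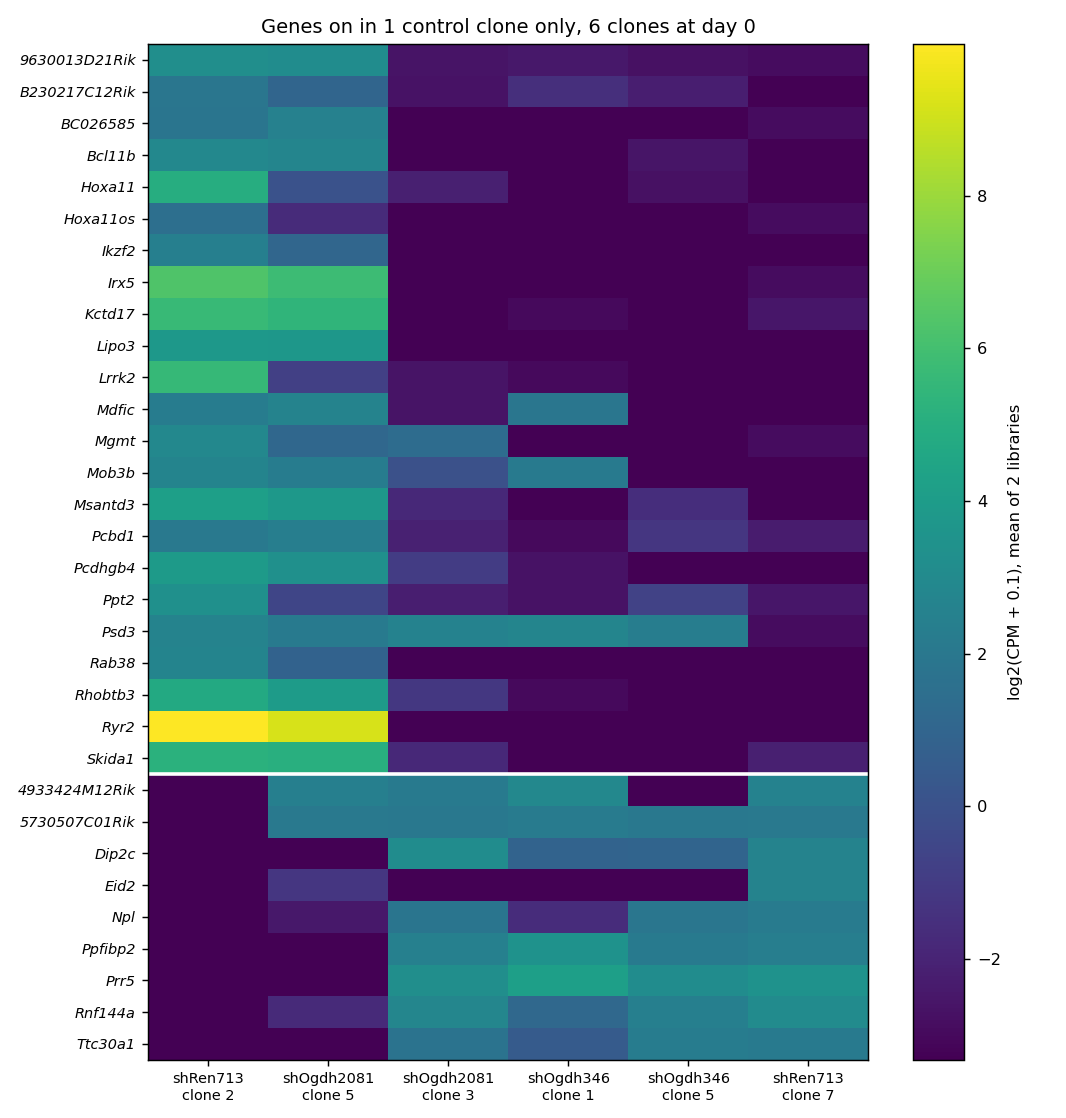
Level at day 0, as log2 of CPM plus 0.1 (colour, mean of 2 libraries), of 23 of the 24 genes on only in control clone 2 (above the white line) and the 9 on only in control clone 7 (below it), in 6 clones. The column of shOgdh2081 clone 5 resembles that of control clone 2 for most genes, with Ryr2 bright in both.

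Over all 861 genes with at least 2-fold differences, shOgdh2081 clone 5 was nearer to control clone 2 than to control clone 7 at 562 (65.3%), shOgdh2081 clone 3 at 251 (29.2%), shOgdh346 clone 1 at 184 (21.4%) and shOgdh346 clone 5 at 135 (15.7%). Control clone 2 alone lay outside the range of the 4 Ogdh hairpin clones at 56.6% of these genes and control clone 7 alone at 10.1%, beside 29.9% and 14.03% of all genes tested. Kit, for example, had a mean of 358 CPM in control clone 2 and 322 CPM in shOgdh2081 clone 5 at day 0, and 150 to 191 CPM in the other 4 clones. Epha7 had 228 and 110 CPM in that pair and 1.56 to 3.47 CPM elsewhere, and Cdkn2a 7.501 CPM in shOgdh2081 clone 5 and 55.0 to 61.8 CPM in the other Ogdh hairpin clones. Kmt2a and Mllt3 did not follow this grouping, since shOgdh2081 clone 3, at 1971 and 402 CPM, was high as well as clone 5, at 2266 and 456 CPM. Hoxa9 did not follow it either. At day 0 it had 240 CPM in control clone 2, and 252, 249 and 205 CPM in shOgdh2081 clones 5 and 3 and shOgdh346 clone 1. Control clone 7 and shOgdh346 clone 5 were the low clones, at 115 and 104 CPM. Hoxa10 was highest in control clone 2, with 113, 65.7, 62.5, 51.5, 28.1 and 26.8 CPM in the same order of clones. At day 4 Ogdh stood at 35.6 CPM in shOgdh2081 clone 5.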

How the data were processed

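RNA of 24 libraries of RN2 clones was sequenced as poly(A) libraries, 76-base single-end reads on an Illumina HiSeq instrument, per the labels' protocols. The deposited table holds whole-number counts of reads per gene, not normalised. The submitters' processing notes name FastQC 0.11.5, Trimmomatic 0.36, STAR 2.6.1a, featureCounts 1.6.3 and the build mm10; for strand setting, annotation release and multiply mapped reads no source used here gives a statement. The protocol text names a human build and RPKM, which the mouse gene IDs and whole numbers contradict.

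Groups came from the labels. Genes passing edgeR's filterByExpr (11969, of which 11607 autosomal) were normalised by TMM and tested with edgeR 4.0.16 in R 4.3.3 (robust quasi-likelihood, day and clone as terms, 8 control libraries, 5 residual degrees of freedom), with Benjamini-Hochberg adjustment over all 11969 and a threshold of 0.05. Day-specific calls refit the 4 libraries of that day. The clone pairs of day 0 came from 1 fit of all 24 libraries. CPM use TMM factors of the 24 libraries. Folds against 0 counts use a floor of 3 counts over the clone; with 1 to 3 counts the ratio has an exact 95% interval, and both cover counting error only. The code was tested on simulated data.

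Named genes are Ogdh, the 12 largest differences per direction with at least 5 CPM and no overlap between clones (predicted gene models passed over), up to 3 called members per list with the smallest p, and members of neighbour runs; others were singled out after their values were seen. The members and the 49 gene lists were chosen with earlier results of these data known. Alternatives were DESeq2 1.42.0, RLE size factors, no filter on low counts, a replicate block, summed replicates, single days, all 24 libraries and each library left out. A few genes are not reported here.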

Additional observations from a re-analysis of the deposited data

How the results depend on the processing

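The 3356 genes called over both days became 5149 with replicate number within day as a block and 905 with the day 0 libraries alone, and the 861 at 2-fold or more became 561 with the day 0 libraries alone. Other alternatives kept both counts within 1.5 times. The 0 interaction calls became 6 with no filter on low counts, 1 (Smg9) with DESeq2, 104 with the block, 0 to 4 with 1 library left out (4 without clone 7 day 0 replicate 2, 2 without clone 2 day 0 replicate 2), and 13 without day 0 replicate 1 of both clones, an alternative chosen after seeing the data. With each hairpin's day 0 libraries alone, the pairs of shOgdh346 and shOgdh2081 differed at 267 and 302 genes. At 5 CPM, 15 and 1 genes were on only in clone 2 and clone 7. Fosb reversed with day 4 alone (0.68) and Ighm with day 0 alone (0.18). The cause of these changes was not tested. Of 231 named genes called, 161 kept the call in all 17 alternatives and 70 lost it in at least 1. With the day 0 libraries alone 66 lost it. The 24 largest kept it throughout, but they were chosen from these same libraries as called, large and without overlap. Their keeping the call is therefore no separate support.

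Same-numbered libraries deviated together at day 0 (correlations of 0.355 to 0.463 over 15 pairs of clones, 0.424 for the control clones) but not at day 4 (-0.015 to 0.075), so the numbers mark something shared at day 0 only, which the labels do not name; the block stays an alternative, and beside the counts above it changed the call of Ctsg and Ly6c2 among the genes named. There are 2 libraries per clone and day, and 1 isolate per clone.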

Other observations

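Some genes that separate the control clones also had different levels at the 2 days in the Ogdh hairpin clones. Hmga2, near 0 in control clone 7, had 0.053, 0.681, 3.76 and 5.46 CPM at day 0 in shOgdh346 clones 1 and 5 and shOgdh2081 clones 3 and 5, and 2.40, 30.5, 57.7 and 32.04 CPM at day 4, in the same order. Lrrk2 had 0.027, 0, 0.065 and 0.471 CPM at day 0 and 2.92, 2.00, 3.94 and 7.40 CPM at day 4. Both were higher at day 4 in all 4 clones. In control clone 7 Hmga2 and Lrrk2 stood at 0.258 and 0 CPM at day 0 and at 0.334 and 0.105 CPM at day 4. In control clone 2 they stood at 18.3 and 48.9 CPM at day 0 and at 20.2 and 64.3 CPM at day 4. These values are means of 2 libraries and were not tested; the genes were singled out after their values were seen.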
